A study of Mus musculus with 6 samples.

Results

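Leukocyte-restricted genes are genes whose RNA is normally found in white blood cells, and here they were followed in cultured carcinoma cells. The members were chosen by name on a mouse Illumina bead array. They are LAPTM5, FCGR3, CD53, CD14, NCKAP1L, PTPRC, TYROBP, CD52 and PIRA4, together with every array name that starts with PIRA or PIRB. This found 14 of the 30854 names on the array, carried by 23 of its 45281 probes. Of these, 6 names and 11 probes start with PIRA and 0 names start with PIRB. The members were picked with the difference between treated and untreated plates already known, so their values are given as a description. Whether the fit over all genes called them is stated, but these calls are not read as support.

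The cells were malignant epithelium of a pancreatic tumour (PDAC, pancreatic ductal adenocarcinoma) from a KPC-Brca1 mouse, kept for a short time in explant culture. In 1 group, 3 replicate plates received 0.5 µM 5-aza-dC (decitabine, DAC) for 48 h, and in the other 3 replicate plates were left untreated. Decitabine is a cytidine analog that enters DNA and traps the enzymes that methylate it. The comparison asks which genes become active after DAC. All 6 plates come from the same kind of culture, and the alleles and Cre driver behind the name KPC-Brca1, the age of the mouse and the number of tumours are not given in the sources used here. Any p-values and errors therefore measure only the spread between plates, which may be technical.

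White blood cells recognise their surroundings through surface receptors that mostly cannot signal alone. Activating Fc receptors and the activating paired immunoglobulin-like receptors (PIR-A) pass their signal to small adaptors, Fcer1g or Tyrobp, whose tyrosine motif (ITAM) recruits the kinase Syk. The inhibitory partner PIR-B acts through the phosphatase Ptpn6, and PIR proteins of the mouse bind MHC class I molecules. In the myeloid lineage many such genes are controlled by the transcription factor encoded by Spi1, which binds purine-rich sites such as GAGGAA. DNA methylation is one of the layers that keep lineage genes silent in other cell types, and tumour epithelium is usually taken to lack the receptors described here.

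The upstream sequence of the members is shown because DAC acts on DNA methylation, which in mammals lies mainly at CG dinucleotides, and because PIRA names that differed in detection have near-identical upstream sequence. RefSeq (GRCm38.p6) gave windows for 7 member genes used here, and the 250 bases before the annotated start are printed 5′ to 3′ on the gene's strand. Capitals mark CG dinucleotides and the motif GAGGAA on either strand (TTCCTC when it lies on the other). The windows are Laptm5 at chr4:130913066-130913315 (plus strand), Pira1 at chr7:3739918-3740167, Lilra6 (the current symbol for the array name PIRA3) at chr7:3915502-3915751, Fcgr3 at chr1:171059395-171059644, Cd53 at chr3:106790150-106790399 and Ptprc at chr1:138175306-138175555 (all minus strand).
Laptm5: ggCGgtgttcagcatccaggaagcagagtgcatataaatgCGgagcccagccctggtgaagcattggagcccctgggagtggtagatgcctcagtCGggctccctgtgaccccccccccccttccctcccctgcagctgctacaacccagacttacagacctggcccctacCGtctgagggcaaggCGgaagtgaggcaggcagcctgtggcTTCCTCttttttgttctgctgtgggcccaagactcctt
Pira1: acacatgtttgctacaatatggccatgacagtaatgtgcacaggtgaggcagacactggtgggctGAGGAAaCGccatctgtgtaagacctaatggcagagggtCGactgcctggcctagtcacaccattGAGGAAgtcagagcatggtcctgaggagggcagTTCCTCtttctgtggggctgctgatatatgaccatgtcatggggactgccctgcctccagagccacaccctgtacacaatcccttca
Lilra6: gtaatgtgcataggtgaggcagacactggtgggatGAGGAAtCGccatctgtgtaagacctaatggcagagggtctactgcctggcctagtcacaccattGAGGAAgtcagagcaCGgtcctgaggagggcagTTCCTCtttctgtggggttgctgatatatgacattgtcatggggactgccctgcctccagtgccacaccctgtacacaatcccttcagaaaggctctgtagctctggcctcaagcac
Fcgr3: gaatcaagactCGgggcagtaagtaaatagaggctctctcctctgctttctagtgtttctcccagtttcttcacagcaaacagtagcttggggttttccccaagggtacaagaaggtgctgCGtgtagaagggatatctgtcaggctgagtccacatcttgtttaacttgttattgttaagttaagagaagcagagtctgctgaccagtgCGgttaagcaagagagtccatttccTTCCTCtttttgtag
Cd53: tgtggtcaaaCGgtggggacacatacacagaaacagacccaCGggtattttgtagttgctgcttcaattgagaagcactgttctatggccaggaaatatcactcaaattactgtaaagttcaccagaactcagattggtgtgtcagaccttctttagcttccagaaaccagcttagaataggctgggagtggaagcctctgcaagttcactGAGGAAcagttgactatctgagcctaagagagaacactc
Ptprc: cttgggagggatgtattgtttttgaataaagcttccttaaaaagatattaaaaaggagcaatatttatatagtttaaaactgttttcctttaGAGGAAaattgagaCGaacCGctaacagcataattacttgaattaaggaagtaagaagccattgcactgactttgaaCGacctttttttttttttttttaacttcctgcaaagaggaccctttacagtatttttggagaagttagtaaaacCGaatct

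The windows of these 7 genes held few CG dinucleotides. They had between 2 (Pira1, Pira2, Lilra6, Cd53 and 1 Ptprc window) and 5 (Laptm5), where the median of 32851 windows of the same length was 6. A count of at most 2 was found in 29.0% of all windows and a count of at most 5 in 49.6%. The motif GAGGAA was present in 8 of their 9 windows, against 23.3% of all windows, and 3 times each in Pira1, Pira2 and Lilra6, whose near-identical windows are not independent. Fcgr3 has 2 windows that overlap almost wholly and hold the same match, and the 2 Ptprc windows overlap in part. The 8 of 9 is therefore not a count of separate sites. An interferon-type motif (GAAA, any 2 bases and GAAA again, either strand) was found in 0 of the 9 windows and in 2.98% of all windows. A match is a string of letters, not a shown binding site, and the Ptprc window that is not printed held no GAGGAA. Over the 222 bases that both windows share, Pira1 and Pira2 were identical (222 of 222), and Lilra6 matched Pira1 at 211 of 220 bases (95.9%).

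The arrays bore out the epithelial label in part. Krt8, Krt18, Krt19 and Cdh1 were detected on all 6 arrays, whereas Epcam, the epithelial adhesion molecule, was detected on none, nor was Esrp1. A probe is called detected on an array where the detection p that the deposited table gives for it was under 0.05, which held for 43.9% to 47.4% of probes. A probe was read from a median of 44 or 45 beads. Untreated replicate 1 stood apart. Its squared difference from untreated replicates 2 and 3 was 21.9 and 25.9 times the bead variance, while these 2 arrays differed from each other by 1.71 times. By this measure untreated replicate 1 was nearer to DAC replicates 2 and 3 (16.6 and 17.5) than to its own group. Its value against DAC replicate 1 was 27.0. Pairs of a DAC and an untreated array ran from 11.1 to 27.0, and pairs of DAC arrays from 3.55 to 8.22. By this measure, taken before normalisation, some distances within the untreated group were thus as large as those between the groups. On the normalised log2 values the order differed. There untreated replicate 1 correlated with untreated replicates 2 and 3 at r = 0.977 and 0.976, and with DAC replicates 1 to 3 at r = 0.963, 0.968 and 0.969. Because untreated replicate 1 stood apart by the first measure, values without this array are given beside the results. Across all genes, 14154 were tested and 17.3% were called changed at an adjusted p under 0.05 (limma, Benjamini-Hochberg), 10.1% higher and 7.21% lower with DAC. Without untreated replicate 1 these calls numbered 2521 higher and 2167 lower, against 1431 and 1020 with all arrays.

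Expression of the members split into 3 patterns. Of the 23 probes, 8 were detected on all 3 DAC arrays and on no untreated array, 3 were detected on all 6 arrays and 12 were not detected on any array. The 8 probes belong to 7 names, LAPTM5, NCKAP1L, PIRA1, PIRA2, PIRA4, PIRA6 and PIRA11. The 3 probes belong to FCGR3, CD53 and CD14. No probe of PTPRC, TYROBP, CD52 or PIRA3 was detected. Thus 10 of 14 names passed the filter of detection on at least 3 arrays, and 7 of these passed only through the DAC arrays, which fixes their direction. Of the 10, 9 were called higher and 1 lower with DAC. The groups did not overlap on the normalised scale in any of the 10. Of these, 9 lay wholly higher with DAC, as did 17.4% of all genes tested. CD14 lay wholly lower, for which no such share is given. The members were picked on this contrast, and nothing is read from these shares. In a bulk culture, more cells with an RNA and more RNA per cell cannot be told apart.

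**Figure D1:**
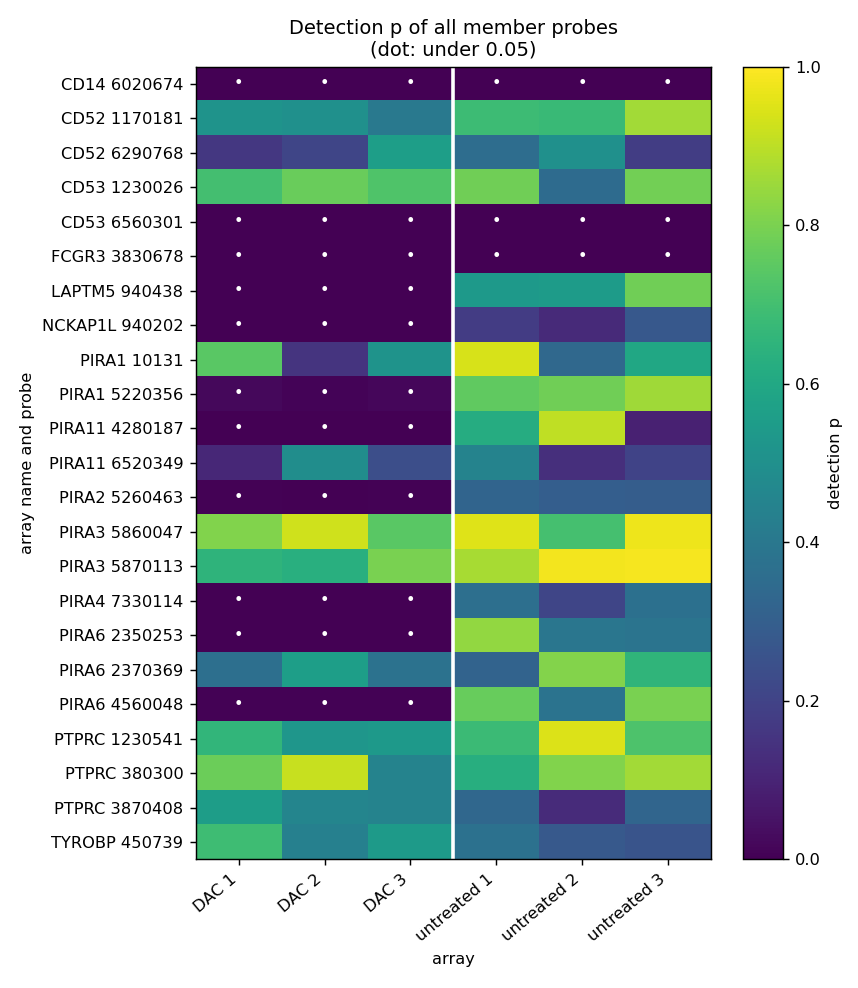
Detection p of each of the 23 member probes (rows) on each array (columns, DAC left of the white line, untreated right of it), with a colour scale from 0 to 1 and a dot where it was under 0.05. LAPTM5, NCKAP1L and 6 PIRA probes have dots on the 3 DAC arrays only, CD14, FCGR3 and 1 CD53 probe on all 6, and the other 12 probes have none.

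LAPTM5, a lysosomal membrane protein of leukocytes that limits antigen receptor signalling, was seen only after DAC. Its single probe read 134.5, 140.1 and 140.9 intensity units on DAC replicates 1 to 3, with a detection p of 0 on each. On untreated replicates 1 to 3 it read 50.9, 45.8 and 43.9, with a detection p of 0.535, 0.549 and 0.782. The DAC arrays lay close together and far above the untreated arrays, and the bead standard error was at most 5.50 on any array. After normalisation the probe averaged 6.79 ± 0.30 with DAC and 4.35 ± 0.04 untreated (log2 signal, SD, n = 3). The fitted log2 difference was 2.44 ± 0.16 (SE), or 2.45 without untreated replicate 1, and it ranked 78 of 14154 genes from the top. An undetected probe has only an upper bound, so the fold is also given against the lowest detected signal of each untreated array where that was higher. On this background-corrected scale LAPTM5 was at least 3.91-fold higher with DAC. The size depended on that correction, and the log2 difference was 1.36 with no background correction.

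NCKAP1L, the blood-cell form of the Nap subunit of the actin-regulating WAVE complex, was likewise detected only with DAC. Its probe read 143.4, 147.8 and 131.5 with DAC, each at a detection p of 0. The untreated readings were 59.5, 53.0 and 50.7, with a detection p of 0.177, 0.121 and 0.276. No untreated array reached the level of any DAC array. Its fitted log2 difference was 2.27 ± 0.12 (2.29 without untreated replicate 1), which on the background-corrected scale is at least 4.00-fold higher with DAC. With no background correction the log2 difference was 1.22.

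Among the members the largest difference was that of PIRA4, of the paired immunoglobulin-like receptors, activating receptors of myeloid and B cells. PIRA4 read 325.1, 236.5 and 225.1 with DAC, each at a detection p of 0. Its untreated readings were 53.6, 50.6 and 48.9, with a detection p of 0.365, 0.210 and 0.371. DAC replicate 1 was the highest, and the lowest DAC array was still far above every untreated array. On the log2 scale PIRA4 averaged 7.89 ± 0.22 with DAC and 4.45 ± 0.05 untreated (SD, n = 3), a fitted difference of 3.44 ± 0.13 that ranked 30 of 14154. On the background-corrected scale it was at least 8.38-fold higher with DAC. The log2 difference was 3.43 without untreated replicate 1 and 2.10 with no background correction.

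The other PIRA names were dimmer and were split between probes. The brighter PIRA6 probe read 106.7, 95.9 and 85.1 with DAC at a detection p of 0.00107, 0 and 0.00107, against 45.8, 47.5 and 48.7 untreated at 0.839, 0.392 and 0.385. Another PIRA6 probe read 78.2, 71.6 and 71.4 with DAC and 47.2, 47.6 and 43.6 untreated. Neither probe had an overlap between the groups. The third PIRA6 probe read 49.7, 46.8 and 48.6 with DAC and 54.6, 42.6 and 45.5 untreated, so that the groups overlapped and no array detected it. By its brightest probe and on the background-corrected scale, PIRA6 was at least 2.29-fold higher with DAC, and with no background correction its log2 difference was 0.85 in place of 1.64.

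PIRA11 and PIRA1 showed the same split between their probes. The responding PIRA11 probe read 88.2, 87.2 and 80.6 with DAC, with a detection p of 0.00321, 0.00214 and 0.00107, against 49.8, 41.0 and 55.1 untreated, at 0.619, 0.905 and 0.0930. The responding PIRA1 probe read 66.8, 67.9 and 61.8 with DAC, with a detection p of 0.0214, 0.00962 and 0.0192, against 47.3, 43.2 and 42.6 untreated, at 0.757, 0.784 and 0.859. Both were wholly separate between the groups. Their fellow probes were not detected on any array, at 47.8 to 56.9 with DAC and 52.1 to 52.6 untreated for PIRA11, and at 44.7 to 54.8 with DAC and 43.6 to 48.3 untreated for PIRA1. PIRA2 has 1 probe, at 77.4, 78.2 and 69.4 with DAC (detection p 0.00534, 0.00321 and 0.00534) and 54.5, 48.9 and 50.3 untreated (0.323, 0.297 and 0.296). On the background-corrected scale PIRA11 was at least 1.91-fold higher, PIRA2 at least 1.51-fold and PIRA1 at least 1.16-fold. With no background correction their log2 differences were 0.69, 0.46 and 0.45, in place of 1.34, 0.96 and 0.74.

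PIRA3, whose gene is now called Lilra6, was not detected by either of its probes. They read between 41.4 and 46.1 with DAC and between 38.3 and 45.0 untreated, with detection p from 0.631 to 0.929 with DAC and from 0.704 to 0.988 untreated. PIRA3 was the PIRA name without a detected probe, although its upstream window shown above is close to that of Pira1. In all, 6 of 11 PIRA probes were detected after DAC and 5 on no array. PIRA4, PIRA6 and PIRA11 match no current RefSeq symbol. Probes of so close a family may bind each other's transcripts, and the table gives no probe sequence, so which of these genes was transcribed is uncertain.

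**Figure D2:**
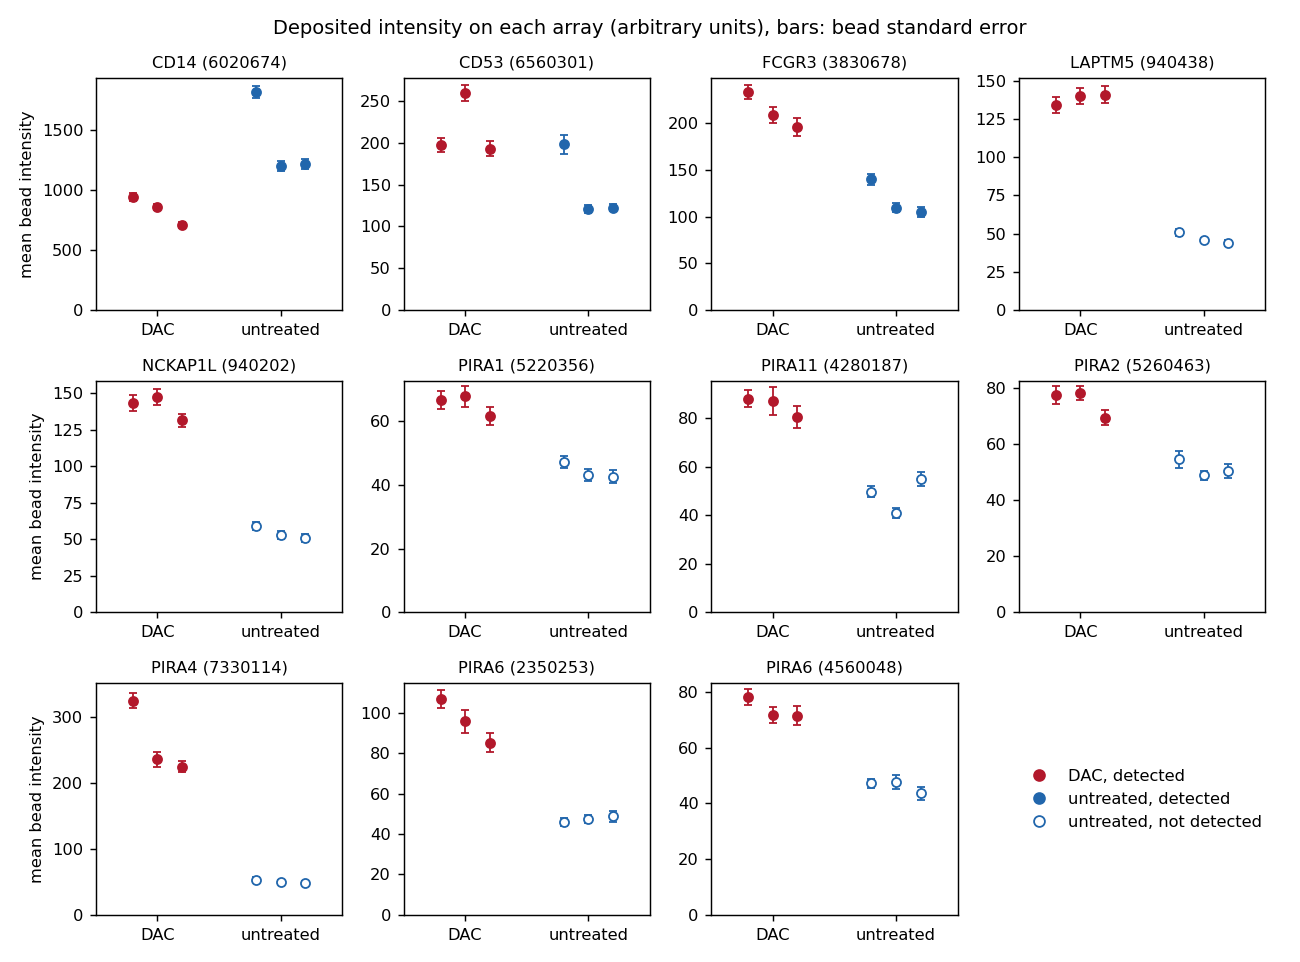
Deposited intensity (arbitrary linear units, each vertical axis starting at 0) of the 11 member probes that passed the filter, for 3 DAC arrays (red, left) and 3 untreated arrays (blue, right), with the bead standard error as bars and open circles for arrays without detection. LAPTM5, NCKAP1L and the PIRA probes are open circles near 50 untreated and filled above that with DAC, and CD14 is lower with DAC.

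FCGR3, a low-affinity receptor for immunoglobulin G on macrophages and natural killer cells, was already present in untreated plates. It read 233.2, 208.8 and 196.1 with DAC, with a detection p of 0 on each array. Untreated plates read 139.9, 109.5 and 104.7, with a detection p of 0, 0.00107 and 0.00107. Every DAC array lay above every untreated array. The log2 difference was 1.24 ± 0.13, or 1.33 without untreated replicate 1. Its close relative Fcgr4, an activating Fc receptor of the same chromosomal cluster that was not a member, rose in the same plates by 1.67 ± 0.18 (adjusted p = 0.000663, limma). It read 206.8, 219.8 and 222.2 with DAC and 116.6, 82.8 and 92.9 untreated.

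CD53, a tetraspanin of leukocytes, depended more on normalisation. It read 196.7, 259.6 and 192.8 with DAC and 198.0, 120.8 and 122.4 untreated, each at a detection p of 0. Untreated replicate 1, the array with the highest mean intensity, thus overlapped with the DAC arrays before normalisation. After it, CD53 averaged 7.57 ± 0.31 with DAC and 6.69 ± 0.35 untreated (log2 signal, SD, n = 3), a difference of 0.88 ± 0.21, or 1.08 without that array. Its other probe was not detected, at 44.4 to 45.3 with DAC and 43.8 to 48.2 untreated. The CD53 call was lost under 8 of 16 alternatives, among them leaving out any of DAC replicates 2 and 3 and untreated replicates 2 and 3.

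CD14, the receptor that hands bacterial lipopolysaccharide to Tlr4, was the member that was lower with DAC. It read 943.3, 859.9 and 711.7 with DAC and 1820.7, 1199.8 and 1217.1 untreated, with a detection p of 0 on all 6 arrays. All DAC arrays lay below all untreated arrays, and untreated replicate 1 was far the highest before normalisation. On the log2 scale CD14 averaged 9.73 ± 0.07 with DAC and 10.33 ± 0.03 untreated (SD, n = 3). The difference was -0.60 ± 0.11, or -0.59 without untreated replicate 1. The call was lost with the replicate number as a block.

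PTPRC, TYROBP and CD52 were not detected on any array. PTPRC, the phosphatase CD45 carried by nearly all white blood cells, has 3 probes, which read 41.7 to 48.3 with DAC and 40 to 54.3 untreated, with detection p from 0.447 to 0.918 with DAC and from 0.123 to 0.947 untreated. TYROBP, the ITAM adaptor also called DAP12, read 45.4, 48.6 and 46.7 with DAC and 53.5, 49.2 and 51.0 untreated, with a lowest detection p of 0.435 with DAC and 0.260 untreated. CD52, a small lipid-anchored glycoprotein of lymphocytes, read 46.6 to 54.5 with DAC and 42.5 to 53.7 untreated over its 2 probes. Its detection p lay between 0.163 and 0.560 with DAC and between 0.182 and 0.862 untreated. The TYROBP probe and 1 PTPRC probe, at 47.0, 48.3 and 48.0 with DAC and 54.3, 52.9 and 49.6 untreated, read lower on every DAC array than on any untreated array, and the other PTPRC and CD52 probes overlapped between the groups. Levels under the detection limit of the array cannot be told from none.

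The adaptors and kinases that these receptors signal through were detected in part. Fcer1g, the adaptor of Fcgr3, Fcgr4 and the PIR-A receptors, read 47.9, 41.4 and 44.6 with DAC and 52.3, 43.0 and 48.2 untreated, and was detected on no array. Hcst, another adaptor, was detected on 0 DAC arrays and 1 untreated array, and Syk on 2 DAC arrays and 0 untreated arrays. Plcg2, Ptpn11 and Ptpn6, which act further down, were detected on all 6 arrays. The list used for these genes is wider than ITAM receptors, adaptors and kinases, and also holds Ptpn11, Plcg2, Pilra and Osm. Of its 27 genes on the array, 15 were not detected on any array and 6 were tested. Of these 6, 1 rose (Fcgr4) and 0 fell in the limma fit (1 and 0 at an unadjusted p under 0.05). Fcgr1 and Fcgr2b, further immunoglobulin G receptors, were not detected. Plcg2, Siglech and Ptpn11 did not pass, at 0.36 ± 0.18, 0.25 ± 0.23 and 0.07 ± 0.11.

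On the ligand side, H2-K1, an MHC class I heavy chain, rose by 1.98 ± 0.24 (adjusted p = 0.00110, limma), with 1368.8, 2018.9 and 1719.6 with DAC and 842.7, 378.3 and 391.6 untreated. Its light chain gene B2m rose by 0.41 ± 0.11 (adjusted p = 0.0325, limma), a call lost under 8 of 16 alternatives, including each fit without 1 DAC array and those without untreated replicate 2 or 3. Ptpn6, the phosphatase of the inhibitory PIR-B, did not pass, at 0.14 ± 0.19.

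The partners of CD14 were expressed and changed in part. Of 18 genes of the lipopolysaccharide receptor and its pathway, all on the array, 15 were tested, 3 rose and 0 fell (limma, and 4 and 1 at an unadjusted p under 0.05). Tlr3, a sensor of double-stranded RNA, was detected only with DAC. It passed the filter only through those arrays, which fixes its direction, so its adjusted p is not read as support. It was at least 1.69-fold higher on the background-corrected scale (adjusted p = 0.00485, limma), with a lowest log2 difference of 0.51 over the alternatives. The adaptor gene Myd88 rose by 0.62 ± 0.14 (adjusted p = 0.0202) and the inhibitory kinase gene Irak3 by 0.61 ± 0.14 (adjusted p = 0.0213). Neither passed with median scaling or without DAC replicate 2, DAC replicate 3, untreated replicate 2 or untreated replicate 3. Tlr4 read 228.7, 270.2 and 206.7 with DAC and 302.1, 213.5 and 203.2 untreated, and its difference of 0.14 ± 0.15 did not pass, nor did that of its co-receptor Ly96, at 0.32 ± 0.19. Tlr2 did not pass, at 0.34 ± 0.10.

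No other subunit of the WAVE complex was called with NCKAP1L. Of 11 genes of the complex and of Rac1, which activates it, 9 were tested, and 0 rose and 0 fell (limma, and 1 and 2 at an unadjusted p under 0.05). Nckap1, the form of the subunit in most other tissues, was bright on all arrays, at 1977.8, 1671.6 and 1388.4 with DAC and 2318.9, 2035.1 and 2009.5 untreated, with a log2 difference of -0.22 ± 0.15. Abi3, a subunit also found in blood cells, stood at 0.52 ± 0.19 and did not pass (adjusted p = 0.0983, limma). Abi2, Cyfip1 and Rac1 did not pass either, at -0.32 ± 0.13, -0.37 ± 0.15 and -0.22 ± 0.13.

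Other tetraspanins and LAPTM proteins were measured beside CD53 and LAPTM5. Of 25 such genes 19 were tested, 2 rose and 0 fell (limma, and 3 and 3 at an unadjusted p under 0.05). Tspan33 rose by 1.04 ± 0.14 (adjusted p = 0.00228) and Tspan6 by 0.82 ± 0.13 (adjusted p = 0.00447). Tspan3 and Tspan14 did not pass, at -0.48 ± 0.14 and -0.35 ± 0.11. Cd37, another tetraspanin typical of leukocytes, was not detected. The relatives of LAPTM5 in other tissues, Laptm4a and Laptm4b, named outside the rule because of their family, stood at 0.08 ± 0.14 and -0.01 ± 0.22 and did not pass.

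**Figure D3:**
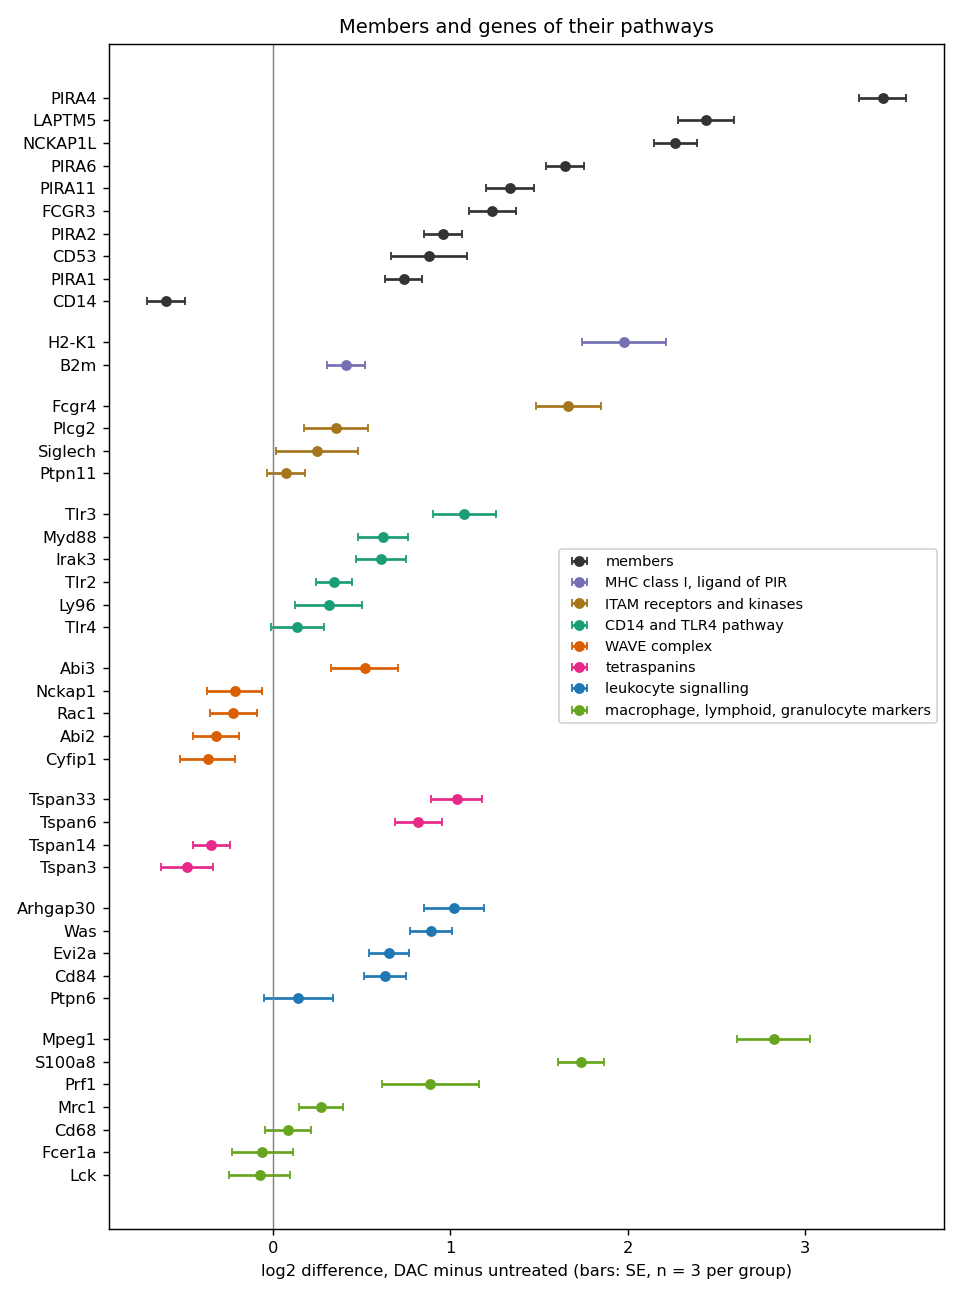
Log2 difference (DAC minus untreated, bars SE, n = 3 per group) of the 10 tested members (top block) and of named genes of their pathways and of leukocyte lists, ordered by size within each block. PIRA4 lies at 3.44 and CD14 at -0.60, while Nckap1, Tlr4 and Cd68 lie within 0.25 of 0.

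Leukocyte genes outside the members were mostly not detected, and some of those measured rose. Of 121 genes in 5 lists (signalling genes of leukocytes, ITAM receptors and kinases, and markers of macrophages, of lymphoid cells and of granulocytes, mast cells and dendritic cells), 114 were on the array, 78 were not detected on any array and 22 were tested. Of these 22, 8 rose and 0 fell in the limma fit (10 and 0 at an unadjusted p under 0.05). Over all genes tested 10.1% were higher and 7.21% lower. The median log2 difference was 0.31, beside -0.02 for all genes tested. Was, Arhgap30 and Cd84, which are among the 8, were detected on all 3 DAC arrays and on no untreated array. The detection rule thus set their direction, and they raise both the count and the median. With detection required on all 6 arrays 18 were tested and 5 rose, where 1099 of 12213 genes were higher. The lists were chosen with earlier results of these data known, so neither count is an independent comparison with all genes. Without untreated replicate 1, 12 of the 22 rose, and with any other array left out 7 or 8.

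The signalling genes that rose were Was, an actin regulator of blood cells (0.89 ± 0.12, adjusted p = 0.00164), Arhgap30 (1.02 ± 0.17, adjusted p = 0.00481), Evi2a (0.65 ± 0.11, adjusted p = 0.00611) and the adhesion receptor gene Cd84 (0.63 ± 0.12, adjusted p = 0.00814). The Evi2a call was lost with median scaling and with the replicate block, and the Cd84 call with the replicate block. Gmfg, named because it completes the 5 of 9, rose by 1.10 ± 0.26 (adjusted p = 0.0218, limma), a call lost without DAC replicate 2 or 3 or untreated replicate 2 or 3. Was, Arhgap30 and Cd84 were detected on no untreated array, so that on the background-corrected scale they were at least 1.40-fold, 1.94-fold and 1.31-fold higher. Their adjusted p-values are not read as support, because the detection rule set their direction. Their lowest log2 differences over the alternatives were 0.41, 0.47 and 0.29. Among the signalling genes 18 of 34 were not detected, including Spi1 and Ikzf1, transcription factors of blood cells, and Ptprcap, a partner of CD45. Itgb2, the common chain of leukocyte integrins, was detected on 2 DAC arrays and 0 untreated arrays.

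Macrophage markers were measured because a tumour explant could hold these cells. Of 18 markers, all on the array, 14 were not detected on any array, among them Adgre1 (F4/80), Itgam and Lyz2. Csf1r was detected on 1 DAC array and 0 untreated arrays. Of the 3 tested, Mpeg1, a pore-forming protein of macrophages, rose by 2.82 ± 0.20 (adjusted p = 5.90e-05, limma), with 232.7, 338.1 and 237.6 with DAC and 81.1, 61.3 and 62.9 untreated. Cd68 and Mrc1 did not pass, at 0.09 ± 0.13 and 0.27 ± 0.12. The summed normalised signal of the macrophage list was 1164 to 1217 with DAC and 792 to 873 untreated, and Mpeg1 was the only gene in it that was called.

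Of 19 lymphoid markers on the array 17 were not detected, among them Cd3e and Ms4a1, and the 2 tested, Prf1 at 0.89 ± 0.27 and Lck at -0.07 ± 0.17, did not pass. Of 16 markers of granulocytes, mast cells and dendritic cells 14 were not detected, and S100a8, a calcium-binding protein of neutrophils and stressed epithelium, rose by 1.74 ± 0.13 (adjusted p = 7.13e-05, limma). Fcer1a did not pass, at -0.06 ± 0.17. The summed signal was 703 to 978 with DAC and 412 to 740 untreated for lymphoid markers, and 172 to 209 with DAC and 106 to 119 untreated for the granulocyte, mast and dendritic list. For the signalling genes it was 610 to 775 with DAC and 441 to 592 untreated, and for the ITAM list 4469 to 4788 with DAC and 4038 to 4596 untreated. Most of the ITAM sum came from Ptpn11, which before normalisation read 3633 to 4333.5 with DAC and 3425.6 to 5761.1 untreated. The brightest lymphoid gene was Prf1, at 591.6 to 690 with DAC and 297.1 to 753 untreated before normalisation. In the granulocyte, mast and dendritic list S100a8 was the only gene called, at 130.1 to 151.6 with DAC and 62.4 to 74.5 untreated. Ptprc, Adgre1, Itgam, Lyz2 and Cd3e were detected on no array, while Mpeg1, Cd68, Mrc1, Prf1, Lck and S100a8 were detected on all 6 arrays and the summed macrophage signal was higher on every DAC array than on any untreated array. The part that white blood cells might have in the members' values was not tested.

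Of 11 red cell and platelet markers on the array 7 were tested, 2 rose and 0 fell (limma, and 3 and 0 at an unadjusted p under 0.05), Pf4 at least 1.34-fold on the background-corrected scale (adjusted p = 0.0171, lowest log2 difference over the alternatives 0.42) and Hba-a1 by 0.58 ± 0.15 (adjusted p = 0.0312), the Hba-a1 call being lost under 10 of 15 alternatives and the Pf4 call without DAC replicate 2 or 3 or untreated replicate 3. Pf4 and Ppbp were detected on no untreated array and were tested only through the DAC arrays, which fixes their direction. The adjusted p of Pf4 is therefore not read as support. Ppbp and Hbb-b1 did not pass. Of 13 stromal and endothelial markers 11 were not detected, among them Pecam1, and Col1a1 rose by 2.22 ± 0.24 (adjusted p = 0.000680, limma) while Pdgfra did not pass. The summed signal was 149 to 186 with DAC and 113 to 135 untreated for red cell and platelet markers, and 898 to 1390 with DAC and 238 to 327 untreated for the stromal list. Col1a1 was the brightest gene of the stromal list, at 841.5 to 1363.6 with DAC and 221.7 to 289.1 untreated before normalisation. The stromal sum is thus largely a reading of 1 gene. Of 9 epithelial markers tested, Cldn4 (1.74 ± 0.12) and Elf3 (1.26 ± 0.16) rose and Krt7 fell (-0.47 ± 0.13, adjusted p = 0.0451), the Krt7 call being lost without DAC replicate 2 or 3 or untreated replicate 2 or 3. Krt8 stood at 0.42 ± 0.14 and did not pass.

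**Figure D4:**
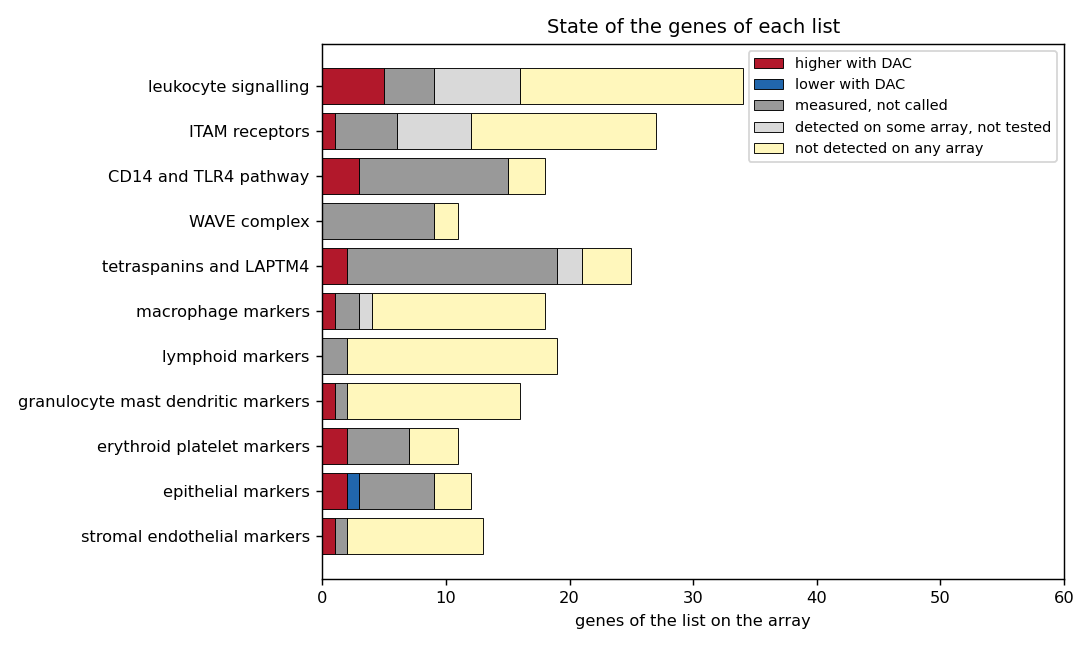
Number of genes on the array in each of 11 lists, split into genes higher with DAC (red), lower (blue), tested but not called (grey), detected on some array but not tested (light grey) and not detected on any array (yellow). In the macrophage, lymphoid and granulocyte lists the yellow part is the largest, 14 of 18, 17 of 19 and 14 of 16 genes.

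The genes whose log2 values followed LAPTM5 most closely over the 6 arrays, out of 10086 that had a RefSeq symbol and were seen on every array, were Ccne1 (Pearson r = 0.9995), Pdgfrl (r = 0.9993) and Fbp2 (r = 0.9990). Their own log2 differences were 0.83 ± 0.11, 0.40 ± 0.10 and 2.62 ± 0.16. With 2 groups in the data many profiles look alike, and 571 of these genes had r over 0.95.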

How the data were processed

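RNA levels were measured on Illumina bead arrays in 3 plates treated with DAC and 3 untreated plates. Total RNA was extracted with Trizol and biotinylated cRNA made with an Ambion kit, per the labels' protocols. Per the file headers, the deposited non-normalized table gives a probe's intensity on an array, its bead standard error, how many beads were read and a detection p-value. The authors' intensity values there are linear and not background-subtracted. The basis of the detection p-value and the scanner software are not given in the sources used here. A further deposited table of normalized values has probe identifiers that could not be tied to names and was not used.

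In R 4.3.3 with limma 3.58.1, background was corrected by neqc (negative controls inferred from detection p, offset 16), followed by quantile normalization and log2. Probes needed a detection p under 0.05 on at least 3 arrays. Array names were matched to RefSeq (16223 by symbol, 5684 by a synonym of 1 gene, 8947 by neither), and each gene was its probe with the highest mean. DAC and untreated arrays were compared with lmFit and eBayes without covariates. The p-values are adjusted over 14154 genes by the Benjamini-Hochberg method, and log2 differences are DAC minus untreated ± SE with n = 3 per group. List sums are over the brightest probe of each gene, with the offset taken off. Only lmFit, eBayes and the adjustment of p-values were tested on simulated data. The simulated log2 values did not go through background correction, normalization, the detection filter or the choice of probe. Promoter windows were aligned with Biopython 1.88.

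The members and lists were chosen with earlier results of these data known. Named genes are all members, in each list the 4 tested genes lowest in adjusted p, 30 further genes and the 3 most like LAPTM5. Some items are not reported here. The labels give no slide. The replicate numbers are shared by the groups, but same-numbered plates did not deviate together (r = -0.61, -0.11 and -0.48), so the main fit has no block. Some plates of unlike number did, DAC replicate 1 with untreated replicates 2 and 3 (r = 0.52 and 0.56) and DAC replicate 3 with untreated replicate 1 (r = 0.53). No fit here pairs them that way. The number of arrays limits the precision.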

Additional observations from a re-analysis of the deposited data

How the results depend on the processing

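All 10 tested members kept the direction of their difference under every alternative that could be run. This is not read as support, because all were picked on this contrast and 7 passed the main filter only through the DAC arrays. Alternatives that changed only the filter, the choice of probe or the block left each member's log2 difference the same. The differences were smaller when no background was corrected and when the offset was 50, where PIRA4 stood at 2.10 and 2.28, LAPTM5 at 1.36 and 1.42 and NCKAP1L at 1.22 and 1.36. With detection required on all 6 arrays, only CD14, CD53 and FCGR3 were left of the 10, and at a detection p under 0.01 on 3 arrays PIRA1 was left out. CD53 was not called with median scaling, without the filter on dim probes, with the replicate number as a block, with untreated replicates 2 and 3 averaged, or without DAC replicate 2 or 3 or untreated replicate 2 or 3. CD14 was not called with the replicate block. Over all genes, 1431 were higher and 1020 lower. Median scaling moved the median difference from -0.02 to -0.12 and gave 907 higher, or 48.4% of calls against 58.4%. With the replicate block 699 were higher and 179 lower, and with untreated replicates 2 and 3 averaged, a fit chosen after seeing the data, 929 and 396. Leaving out 1 array at a time gave 884 to 2521 higher and 340 to 2167 lower, the highest counts coming without untreated replicate 1. Of the leukocyte genes outside the members 8 rose, against 5 with detection on all 6 arrays and 5 with the replicate block, and 7 to 12 when 1 array was left out. The causes were not tested. Probes not detected on the untreated arrays have no measured level there, which limits the size given for LAPTM5, NCKAP1L and the PIRA names.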

Other observations

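The nearest tested genes on both sides of the members on the chromosome were read after the data had been seen, from RefSeq gene order. For 11 member genes with a RefSeq position there were 18 different neighbours, of which 4 were higher with DAC, 2 lower and 12 not called in the limma fit, where 10.1% of all genes tested were higher and 7.21% lower. Fcgr4, next to Fcgr3 with 0 coding genes between, was among those higher. Sdc3, a syndecan gene next to Laptm5 with 0 coding genes between, was higher by 0.90 ± 0.19 (adjusted p = 0.0134, limma), and the gene on the other side, Mecr, did not pass at 0.23 ± 0.15. Gtsf1, a germ cell gene of the piRNA pathway with 1 coding gene between it and Nckap1l, was higher by 1.88 ± 0.16 (adjusted p = 0.000156, limma), and Pde1b on the other side did not pass at 0.37 ± 0.20. Nfkbid, near the undetected Tyrobp, was higher by 0.88 ± 0.25 (adjusted p = 0.0430, limma). The PIR genes lie between Rps9, lower with DAC at -0.42 ± 0.12 (adjusted p = 0.0435, limma), and Ttyh1, which did not pass at 0.29 ± 0.15. Tmco6, next to Cd14, was lower like it, at -0.76 ± 0.13 (adjusted p = 0.00685, limma).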
